A study of Mus musculus with 3 samples.

Results

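UVB-exposed skin of mice with raised Cox-2 was compared with wild-type skin without irradiation in 2 compartments of cells, immune and non-immune, to describe which transcripts differed in both compartments and which in one. The member cells were chosen by their measured UMIs of 4 genes. A cell was immune with at least 2 UMIs (single counted mRNA molecules) of Ptprc and Tyrobp together and fewer than 5 UMIs of Krt14 and Krt5, and non-immune with no UMI of Ptprc or Tyrobp. Of 11379 cells that passed the quality limits in the 2 libraries, 10413 were members, 6431 in the immune and 3982 in the non-immune compartment. The 3 libraries of the series held 19366 cell barcodes in all.

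The 2 libraries were labelled WTctrl (here WT_Ctrl, wild type, no UVB) and RPUV (here RP_UV, genotype RP, irradiated with UVB 3 times). Both came from dorsal skin of male C57Bl/6 mice at 8 weeks of age, in telogen, the resting phase of the hair follicle, and immune cells were enriched with CD45+ beads. RP mice carry Rosa26-rtTA and Tre-Ptgs2, so that doxycycline switches on rat Ptgs2 in all tissues in which the Rosa26 locus is active. Whether the wild-type animal of the single-cell library also received doxycycline is not given in the sources used here. Each group was 1 library of 1 animal, so no difference had a replicate check, and all intervals below are 95% intervals that cover counting error only. The contrast joins 2 changes, UVB exposure and genotype, and their parts cannot be told apart. The third library, WTUV (here WT_UV, wild type after 3 UVB exposures), came from another flow cell and is given only as a level beside some genes.

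Cox-2, encoded by Ptgs2, turns arachidonic acid into the precursor of prostaglandins, and prostaglandin E2 acts on immune cells and keratinocytes alike. UVB damages epidermal cells, which release cytokines, chemokines and antimicrobial proteins, and neutrophils and monocytes enter the skin. Secreted defence proteins of this response are made by blood-derived and by resident cells, whereas MHC class II genes are expressed mainly by immune cells and keratins by keratinocytes.

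The immune compartment held 3076 cells of WT_Ctrl and 3355 of RP_UV, with 14776668 and 16276738 UMIs. The non-immune compartment held 1861 and 2121 cells, with 9546317 and 9949014 UMIs. The median cell of the immune compartment had 4275.5 UMIs in WT_Ctrl and 4318 in RP_UV, and the median cell of the non-immune compartment 4518 and 2800. Between the libraries, 9 cell barcodes were shared. The rule left out 822 cells with 1 UMI of Ptprc and Tyrobp and 144 cells with both immune and keratin UMIs, and no doublets were called beyond that. Just inside the limit, 222 cells of WT_Ctrl and 198 of RP_UV were immune with exactly 2 UMIs, against 316 and 506 left out with exactly 1. Levels are given in CPM, the UMIs of a gene after the summed UMIs of all genes in each compartment and library were scaled to the same total. In such sums, fewer cells of a type and less RNA per cell cannot be told apart.

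Both compartments held several kinds of cells, and their make-up differed between the libraries. Among immune cells, those with macrophage transcripts (3 UMIs of Csf1r and the C1q genes) made up 61.0% (95% Wilson interval 59.3 to 62.7) in WT_Ctrl and 76.6% (75.2 to 78.0) in RP_UV. Those with at least 2 UMIs of the neutrophil genes Csf3r, Retnlg, Cxcr2 and Il1r2 made up 5.33% (4.59 to 6.18) and 26.3% (24.8 to 27.8). Il1r2 was also present in keratinocytes, and without it the shares were 1.30% and 15.8%. T-cell-marked cells made up 12.8% (11.7 to 14.0) and 2.32% (1.87 to 2.89). Among non-immune cells, keratinocyte-marked cells made up 43.7% and 37.9%, fibroblast-marked cells 11.8% and 9.95%, and endothelial-marked cells 5.37% and 14.5%. Not all cells carried marks of their compartment alone: 5.53% of the non-immune cells of WT_Ctrl and 13.3% of those of RP_UV carried the macrophage mark, and 7.42% and 4.76% the T-cell mark.

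**Figure D1:**
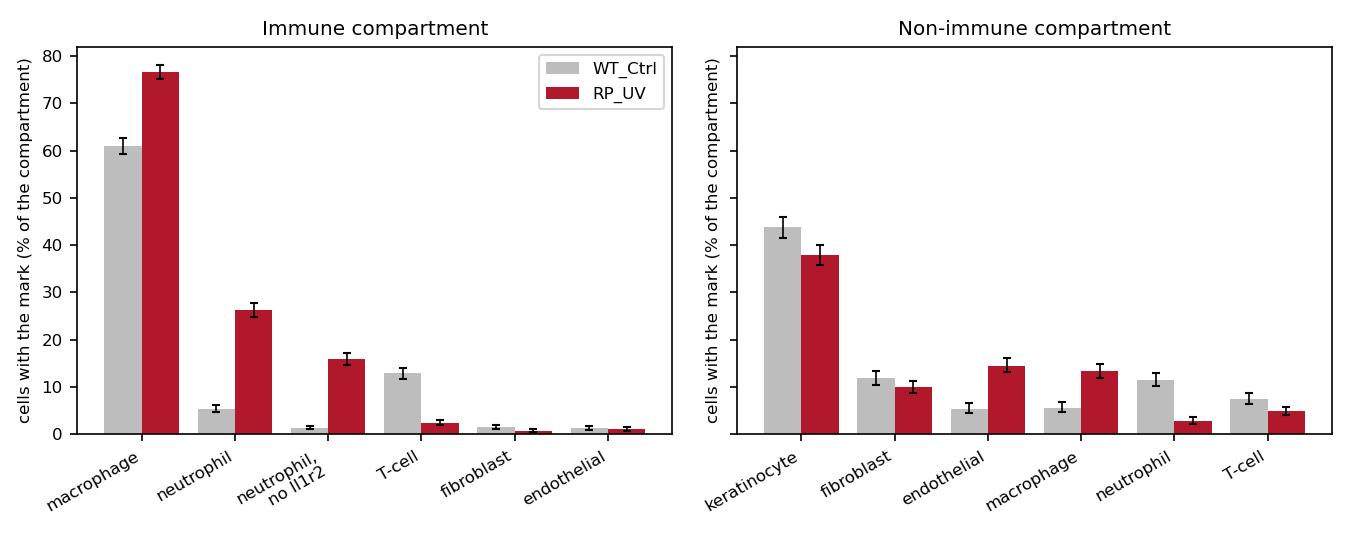
Share of cells (%) with each marker set in the immune (left) and non-immune (right) compartment of WT_Ctrl (grey) and RP_UV (red), with 95% Wilson intervals, which cover counting error only. Neutrophil-marked cells went from 5.33% to 26.3% of the immune compartment and endothelial-marked cells from 5.37% to 14.5% of the non-immune compartment.

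Transcripts of one compartment were also counted at a low level in the other. The panel of 10 macrophage genes stood at 2.51% of its immune level in the non-immune compartment of WT_Ctrl and at 2.26% in RP_UV. The keratinocyte panel without Krt14 and Krt5 stood in the immune compartment at 3.11% and 1.65% of its non-immune level, and the fibroblast panel at 3.17% and 5.97%. These shares are given again beside several results below, and their part in any result was not tested.

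Ptgs2 rose in both compartments. In immune cells its level was 21.5 CPM (19.2 to 23.9) in WT_Ctrl and 543 CPM (532 to 554) in RP_UV, and in non-immune cells 4.5 CPM (3.26 to 6.07) and 402 CPM (389.7 to 415). RP_UV was thus high in both compartments and WT_Ctrl low in both. The fold was 25.3 (22.6 to 28.4) in immune and 89.3 (66.1 to 124) in non-immune cells, and the non-immune fold was 3.53 times (2.56 to 4.86) the immune one. The WT_UV levels were 132 CPM in immune and 6.73 CPM in non-immune cells. The deposited counts do not show what share of the Ptgs2 reads stems from the rat transgene.

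Within single kinds of marked cells, Ptgs2 stood at 163 CPM in macrophage-marked cells of RP_UV without a neutrophil mark, against 12.1 CPM in WT_Ctrl (13.5-fold, 11 to 16.7). In keratinocyte-marked cells it stood at 576 against 6.97 CPM (82.6-fold, 59.8 to 118), and in fibroblast-marked cells at 148 against 1.54 CPM (95.8-fold, 26.1 to 798). In endothelial-marked cells no UMI was found in WT_Ctrl and the level in RP_UV was 24.1 CPM, at least 2.92-fold higher than the level that 3 counts would give. Keratinocyte-marked cells thus had the highest level of these 4 sets in RP_UV, but a set of neutrophil-marked cells was not among them. In the immune compartment without all neutrophil-marked cells the levels were 20.5 and 196 CPM (9.53-fold, 8.42 to 10.8). With those cells they were 21.5 and 543 CPM. In the cells left out by the rule, Ptgs2 stood at 5.11 and 416 CPM with 1 UMI of Ptprc and Tyrobp, and at 12.1 and 558 CPM in cells with both immune and keratin UMIs.

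A gene was compared in a compartment if the mean of its 2 levels was at least 10 CPM, and the 4 genes of the rule were left out. It was called higher if the whole counting interval of its fold, RP_UV over WT_Ctrl, lay at or above 2, lower if at or below 0.5, and level if it lay between. Since these same libraries and counts underlie the choice of the comparison, the calls describe this pair of libraries and carry no test. Of 7789 genes compared in immune cells, 278 (3.57%) were higher and 295 (3.79%) lower in RP_UV. Of 8470 compared in non-immune cells, 298 (3.52%) were higher and 223 (2.63%) lower.

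Most genes compared in both compartments were level in both, 5356 of 6642 (80.6%). Higher in both were 47 genes (0.708% of the genes compared in both) and lower in both 29 (0.437%). The 47 were 27.8% of the 169 genes called higher in immune cells among those compared in both, and 33.1% of the 142 called higher in non-immune cells. The 29 lower genes were 19.3% of 150 and 38.7% of 75. Called higher in immune and level in non-immune cells were 94 genes (1.42%), with 86 lower (1.29%). Called higher in non-immune and level in immune cells were 72 (1.08%), with 34 lower (0.512%). Opposite calls were made for 7 genes (0.105%). Closest to the limit among the genes higher in both was Tspan4, whose smaller lower bound was 2.03, and Odc1 fell just short at 1.98. Among the lower genes Tap1 was just inside, with a larger upper bound of 0.498.

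**Figure D2:**
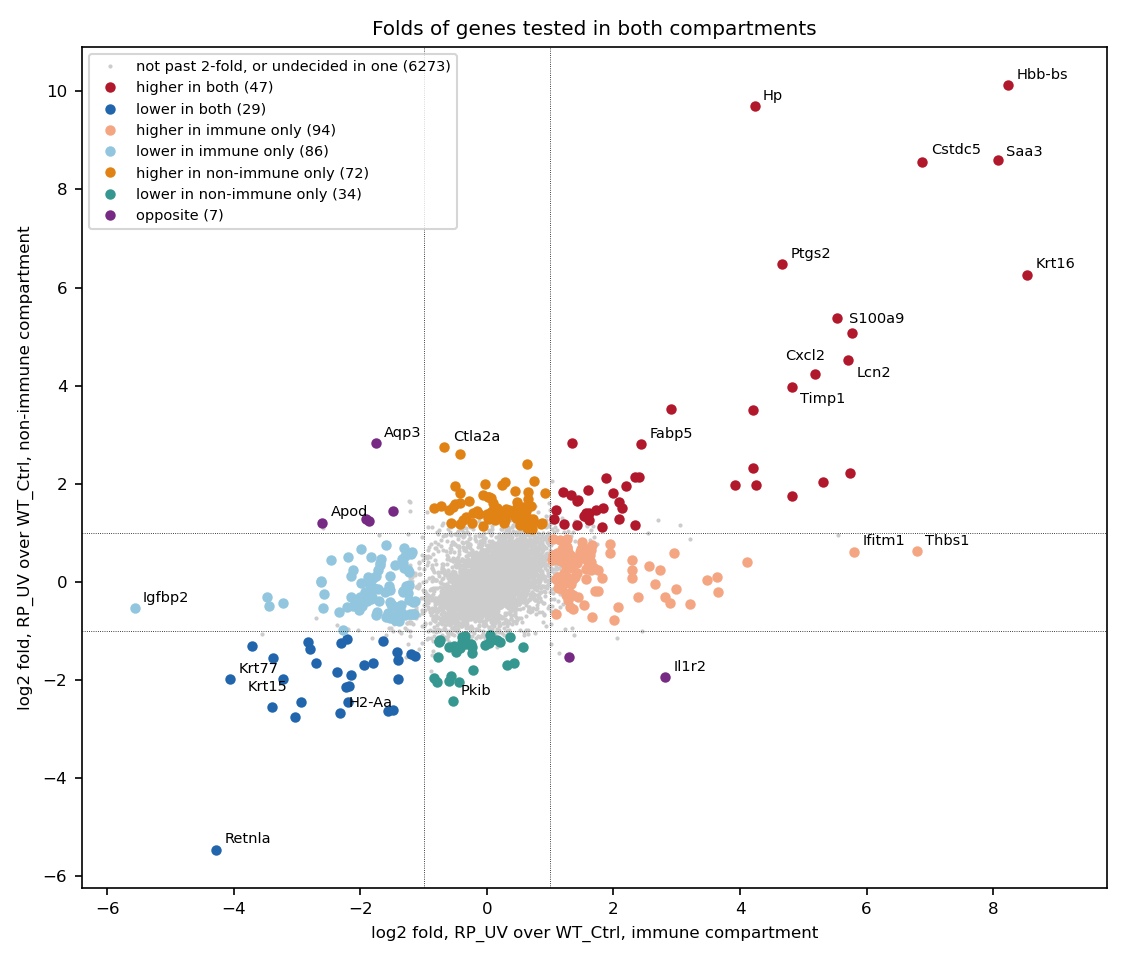
Log2 fold of RP_UV over WT_Ctrl in the immune (x axis) against the non-immune (y axis) compartment for the 6642 genes compared in both, coloured by class, with dotted lines at a fold of 2 either way; Cstdc5, without an immune UMI in WT_Ctrl, is drawn at its lower bound. The 47 genes higher in both lie at the upper right, the 29 lower in both at the lower left, and the 7 with opposite calls at the upper left and lower right.

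The genes higher in both with the largest smaller fold were secreted defence and acute-phase proteins, a chemokine, a protease inhibitor, globins and wound keratinocyte products. The antimicrobial proteins S100a8 and S100a9, which form calprotectin, were among them. S100a9 stood at 35.7 and 1654 CPM in immune cells of WT_Ctrl and RP_UV (46.3-fold, 42.5 to 50.5) and at 1.05 and 43.3 CPM in non-immune cells (41.4-fold, 22.3 to 86.9). S100a8 stood at 20 and 1089 CPM in immune cells (54.4-fold, 48.5 to 61.2) and at 1.15 and 38.6 CPM in non-immune cells (33.5-fold, 18.5 to 67.7). Both were high in RP_UV and low in WT_Ctrl in each compartment, and the interval of the immune over the non-immune fold held 1 (1.12, 0.594 to 2.11, for S100a9 and 1.62, 0.881 to 2.99, for S100a8).

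The levels of these genes were far apart between compartments. In RP_UV the non-immune level of S100a9 was 2.62% of the immune one and that of S100a8 3.54%, next to 2.26% for the macrophage panel. The neutrophil panel, which holds both genes, rose from 199 to 3987 CPM in immune cells and stood at 106 and 164 CPM in non-immune cells, where 0% of WT_Ctrl and 0.141% of RP_UV cells had 2 UMIs of Csf3r, Retnlg and Cxcr2. In keratinocyte-marked cells S100a9 stood at 0.566 and 62.4 CPM (110.3-fold, 37.4 to 537) and S100a8 at 1.51 and 53.2 CPM (35.3-fold, 17.7 to 82.4). In the immune compartment without neutrophil-marked cells S100a9 had no UMI in WT_Ctrl and 54.4 CPM in RP_UV, at least 248-fold higher, and S100a8 stood at 0.439 and 53.7 CPM.

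Lcn2 encodes lipocalin 2, which withholds iron from bacteria. It stood at 0.88 and 46.2 CPM in immune cells (52.5-fold, 30.5 to 99.1) and at 4.29 and 98.6 CPM in non-immune cells (23-fold, 16.8 to 32.2). Its RP_UV level was higher in the non-immune compartment, and in keratinocyte-marked cells it went from 2.26 to 144 CPM (63.6-fold, 36.2 to 124). Without neutrophil-marked cells, the immune level of RP_UV was 4.86 CPM, below the level filter.

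Saa3, an acute-phase serum amyloid, was near zero in both compartments of WT_Ctrl and at almost one level in both of RP_UV. It stood at 0.609 and 164 CPM in immune cells (269.7-fold, 142 to 591) and at 0.419 and 163 CPM in non-immune cells (389-fold, 152 to 1429.7). WT_UV held 6.38 CPM in immune and 0.385 CPM in non-immune cells. Only 9 of those 558 non-immune cells were fibroblast-marked, and their fibroblast panel stood at 116 CPM, against 3675 CPM in RP_UV. Macrophage-marked cells went from 0.496 to 197 CPM and fibroblast-marked cells from 0.771 to 1157 CPM. Hp encodes haptoglobin, which binds free haemoglobin in plasma. It stood at 4.26 and 80.1 CPM in immune cells (18.8-fold, 14.6 to 24.6) and at 0.419 and 348 CPM in non-immune cells (831-fold, 324 to 3052), so that its non-immune fold was 44.3 times (16.1 to 122) the immune one. Fibroblast-marked cells held 1032 CPM of Hp in RP_UV against 0.771 CPM in WT_Ctrl. In keratinocyte-marked cells taken alone Hp was under the level filter, and its fold of 0.884 was undecided.

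Cxcl2, a chemokine that draws neutrophils, stood at 88.9 and 3227 CPM in immune cells (36.3-fold, 34.4 to 38.4) and at 1.36 and 25.5 CPM in non-immune cells (18.7-fold, 10.8 to 35.7). The non-immune level of RP_UV was 0.79% of the immune one, below the 2.26% of the macrophage panel. Macrophage-marked cells without a neutrophil mark went from 114 to 1189.5 CPM (10.5-fold, 9.78 to 11.2) and fibroblast-marked cells from 1.54 to 40.4 CPM (26.2-fold, 6.83 to 223). Of the 24 genes on the chemokine list, its relative Cxcl1 was the only other one higher in both, at 5.08 and 97.3 CPM in immune cells (19.2-fold) and 15.5 and 61.2 CPM in non-immune cells (3.95-fold). Pf4, a platelet chemokine outside that list, was also among the genes higher in both, with a smaller lower bound of 2.05. Its non-immune level in RP_UV was 2.63% of the immune one, next to 2.26% for the macrophage panel.

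Timp1 encodes an inhibitor of matrix metalloproteases. It stood at 1.96 and 55.3 CPM in immune cells (28.2-fold, 19.5 to 42.3) and at 4.5 and 71.1 CPM in non-immune cells (15.8-fold, 11.6 to 22.0). It was higher in macrophage-marked (2.85 to 52.9 CPM), fibroblast-marked (23.1 to 502 CPM) and endothelial-marked cells (8.28 to 51.5 CPM). Lrg1, a secreted glycoprotein known for its effect on blood vessels, stood at 10.8 and 81.3 CPM in immune cells (7.51-fold, 6.37 to 8.90) and at 19.5 and 225 CPM in non-immune cells (11.6-fold, 9.95 to 13.5). Its highest level was in endothelial-marked cells, at 444 and 1438 CPM.

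Cstdc5 and Krt16 are keratinocyte genes, and their non-immune levels were far above the immune ones. Krt16, a keratin of wounded epidermis, stood at 13.5 and 1038 CPM in non-immune cells (76.8-fold, 64.6 to 92.1), and in immune cells at 1 UMI in WT_Ctrl and 25.1 CPM in RP_UV (ratio 371, 66.3 to 14701). Cstdc5, of the cystatin A family, stood at 3.14 and 1179 CPM in non-immune cells (375-fold, 263 to 556), and in immune cells at 0 and 24 CPM, at least 118-fold higher. Members of that family are near copies of each other, so reads can be split between them. Immune levels in RP_UV were 2.42% of the non-immune ones for Krt16 and 2.03% for Cstdc5, next to 1.65% for the keratinocyte panel, which itself went from 464 to 162 CPM in immune cells. In WT_UV Krt16 stood at 367 CPM in non-immune and 5.36 CPM in immune cells.

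The globin genes Hbb-bs and Hba-a1 mark red blood cells. Hbb-bs stood at 3 UMIs (0.203 CPM) and 61.4 CPM in immune cells (ratio 302, 103 to 1468) and at 0.419 and 468 CPM in non-immune cells (1117-fold, 436 to 4101). Hba-a1 stood at 1.08 and 20.1 CPM in immune cells and at 11.9 and 135 CPM in non-immune cells. The whole red blood cell panel went from 1.83 to 113 CPM and from 13.5 to 837 CPM, and its immune level was 13.5% of the non-immune one in both libraries. Among marked cells, Hbb-bs in RP_UV ranged from 0.333 CPM in keratinocyte-marked to 1006 CPM in endothelial-marked cells. Globin genes have near-identical copies, and the split of their reads is uncertain. The globin calls depend on the cell filters: over all deposited barcodes the fold of Hbb-bs was 1.67 in immune and 1.65 in non-immune cells and that of Hba-a1 1.54 and 1.22, all level.

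Fabp5, a carrier of fatty acids, and Cebpb, a transcription factor of the acute-phase response, were abundant in both libraries. Fabp5 stood at 164 and 890.5 CPM in immune cells (5.43-fold, 5.20 to 5.67) and at 843 and 5903 CPM in non-immune cells (7-fold, 6.84 to 7.16). It rose in macrophage-marked (8.29-fold), keratinocyte-marked (9.27-fold), fibroblast-marked (4.46-fold) and endothelial-marked cells (2.84-fold). Of the 47 genes, 16 passed the level filter in these 4 sets, and Ptgs2 and Fabp5 alone were called higher in all 4. Cebpb stood at 215 and 1088 CPM in immune cells (5.07-fold) and at 245 and 549.9 CPM in non-immune cells (2.24-fold). The non-immune call of Cebpb was lost without keratinocyte-marked cells, where its fold was 1.14.

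**Figure D3:**
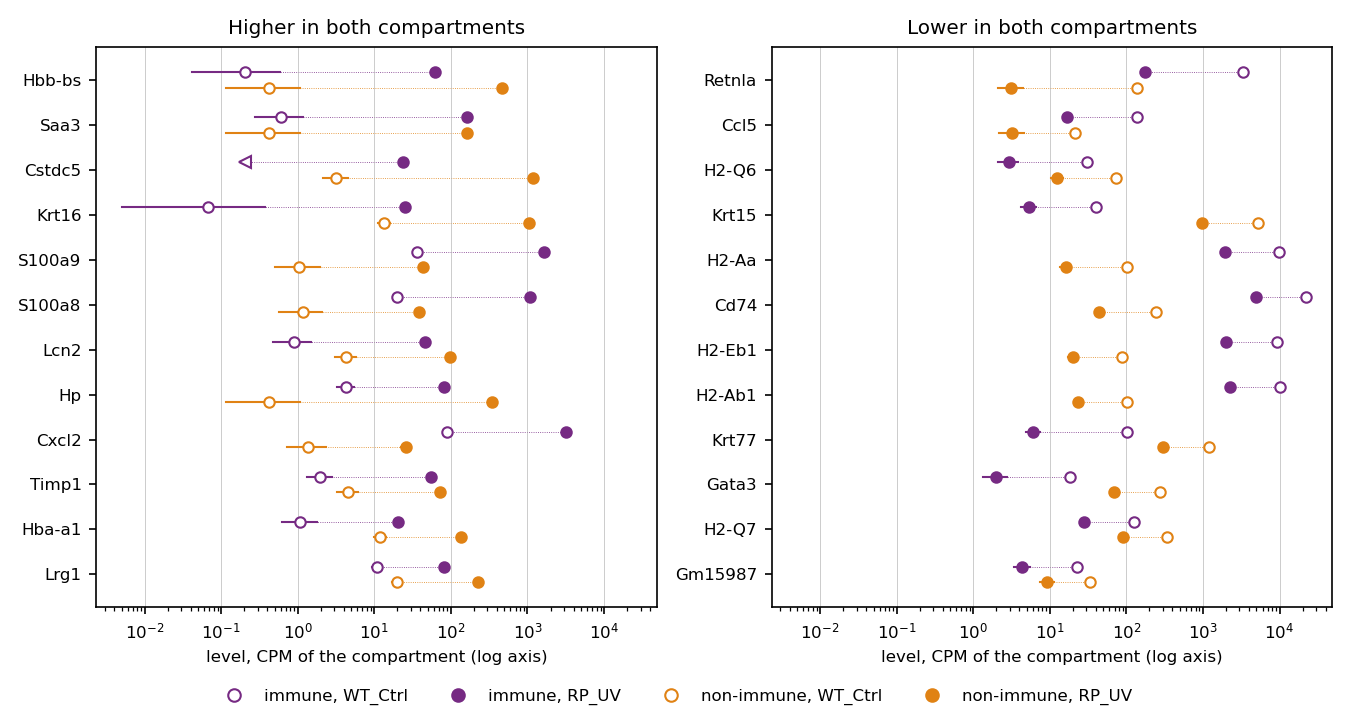
Levels (CPM, log axis) of the named genes higher in both compartments (left) and lower in both (right), in immune (purple) and non-immune cells (orange) of WT_Ctrl (open) and RP_UV (filled), with 95% Poisson intervals; a triangle stands at the level of 3 counts where no UMI was found. The filled point lies right of the open one for every gene on the left and left of it for every gene on the right.

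The other genes higher in both included smooth muscle and macrophage transcripts. Acta2, the actin of smooth muscle, stood at 0.609 and 32.6 CPM in immune cells and at 162 and 754 CPM in non-immune cells (4.65-fold, 4.40 to 4.92). The pericyte and smooth muscle panel, which holds Acta2, moved with it, from 465 to 1676 CPM in non-immune and from 3.86 to 68.8 CPM in immune cells. C1qb, a complement subunit made by macrophages, stood at 2429 and 5047 CPM in immune cells (2.08-fold, 2.05 to 2.10) and at 51.5 and 126 CPM in non-immune cells (2.45-fold, 2.21 to 2.72). The non-immune level of RP_UV was 2.50% of the immune one, next to 2.26% for the macrophage panel. C1qb was level in macrophage-marked cells, at 4347 and 6216 CPM, but it is one of the genes of that mark. Its immune fold was 1.67 when each cell had equal weight and 1.55 with cells thinned to 1000 UMIs, both level.

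Across the 47 genes, the lower of the 2 compartment levels in RP_UV was between 0.791% and 99.2% of the higher one, with a median of 27.5%. In 16 genes it was under 10%, and in 31 at or above. At or above 10% in both libraries were 28 genes, among them Ptgs2, Lcn2, Timp1, Lrg1, Fabp5, Cebpb, Cxcl1, Spp1, Akr1b8 and Tagln2. Spp1 encodes osteopontin and stood at 21 and 111 CPM in immune cells (5.31-fold) and at 5.45 and 23.8 CPM in non-immune cells (4.37-fold). Akr1b8, an aldo-keto reductase, stood at 9.54 and 43.7 CPM (4.58-fold) and at 6.7 and 25.9 CPM (3.87-fold). Srm, the spermidine synthase, stood at 10.8 and 31.3 CPM (2.91-fold) and at 33.7 and 85.4 CPM (2.53-fold). Within marked cells, 29 of the 38 genes compared were higher in macrophage-marked cells, 24 of 27 in keratinocyte-marked, 24 of 39 in fibroblast-marked and 9 of 34 in endothelial-marked cells. Without neutrophil-marked cells, 39 of the 42 compared stayed higher in the immune compartment. These genes were chosen by their folds in compartments that hold the same marked cells, so the counts are no separate support. Over all genes compared, the median log2 fold was 0.046 in macrophage-marked, −0.052 in keratinocyte-marked, 0.169 in fibroblast-marked and −0.106 in endothelial-marked cells.

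The genes lower in both held antigen presentation genes, keratins of resting epidermis, collagens and single macrophage and T-cell genes. Of 5 MHC class II genes compared in both compartments, 4 were lower in both: H2-Aa, H2-Ab1, H2-Eb1 and Cd74, the invariant chain. H2-Aa, the alpha chain of the class II molecule that shows peptides to helper T cells, stood at 9787 and 1966 CPM in immune cells (a factor of 4.98 lower) and at 103 and 16.2 CPM in non-immune cells (a factor of 6.36 lower). Cd74 stood at 22459 and 4914 CPM (4.57 times lower) and at 243 and 44.3 CPM (5.48 times lower). Levels were high in WT_Ctrl and low in RP_UV in each compartment, with WT_UV between them, at 5535 and 72.5 CPM for H2-Aa. The non-immune levels of the 4 genes in RP_UV were 0.82% to 1.04% of the immune ones, below the 2.26% of the macrophage panel. In macrophage-marked cells H2-Aa went from 8068 to 1085 CPM and in keratinocyte-marked cells from 38.3 to 10.7 CPM (3.59 times lower). The dendritic cell panel, which holds no class II gene, went from 657 to 187 CPM in immune cells and stood at 28.3 and 31.4 CPM in non-immune cells.

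Because the letters of the cAMP response element were searched for in the promoters of the named genes, the one window that held them is shown. It is the 250 bases before the start of H2-Aa, on the minus strand at chr17:34287824-34288073 of GRCm38.p6 (RefSeq), written 5′ to 3′ with TGACGTCA in capitals, 74 bases before the start site:
H2-Aa: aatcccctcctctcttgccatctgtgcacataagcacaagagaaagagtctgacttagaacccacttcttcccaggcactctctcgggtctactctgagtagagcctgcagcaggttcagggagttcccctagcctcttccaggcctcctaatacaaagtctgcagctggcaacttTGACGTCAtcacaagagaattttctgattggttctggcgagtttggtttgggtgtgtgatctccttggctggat
The letters TGACGTCA were present in 1.79% of all 32851 windows of this length plus 50 bases after the start, TGACTCA or its reverse complement in 5.20% and the E-box CACGTG in 7.15%, on either strand. Of the 12 named genes lower in both, 8 had a window in the table and H2-Aa alone held any of these letters. Of the 12 named genes higher in both, 10 had a window, and Hbb-bs alone held one, TGACTCA or its reverse complement, 26 bases after its start. Among all 47 genes higher in both, 36 windows of 32 genes were found, with TGACGTCA in 0, TGACTCA in 3 and CACGTG in 3. Among all 29 lower, 20 windows of 19 genes held each in 1. A match is a description of letters and not of a bound site, and a link of these letters to prostaglandin E2 signalling was not tested.

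Part of the MHC class I genes were lower. Of 13 on the list 2 were lower in immune and 5 in non-immune cells, and B2m, H2-K1 and H2-D1 were level in both, with folds from 0.543 to 0.926. H2-Q7 stood at 125 and 28.3 CPM in immune cells (4.41 times lower) and at 342 and 91.5 CPM in non-immune cells (3.74 times lower), and H2-Q6 at 30.4 and 2.89 CPM and at 73 and 12.5 CPM (5.86 times lower). The genes of this cluster are near copies, so their counts are uncertain. H2-Q7 was lower in macrophage-marked, keratinocyte-marked and fibroblast-marked cells, by factors of 3.38, 4.18 and 3.66. Tap1, which carries peptides to class I molecules, stood at 102 and 46.6 CPM in immune cells (2.19 times lower) and at 102 and 35.6 CPM in non-immune cells (2.86 times lower), at almost one level in both compartments.

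Retnla, a secreted product of alternatively activated macrophages, had the largest smaller factor of the genes lower in both. It stood at 3373 and 174 CPM in immune cells (19.4 times lower) and at 137 and 3.12 CPM in non-immune cells (43.9 times lower), with 884 and 57.7 CPM in WT_UV. Macrophage-marked cells went from 5688 to 219 CPM. Its non-immune level in RP_UV was 1.79% of the immune one. Ccl5, a chemokine of T cells and others, stood at 137 and 16.8 CPM (8.17 times lower) and at 21.6 and 3.22 CPM (6.71 times lower). The T-cell panel went from 792 to 131 CPM in immune and from 440 to 191 CPM in non-immune cells. That panel holds Gata3, which made up much of its non-immune level in WT_Ctrl. Gata3 is a transcription factor of helper T cells, innate lymphoid cells and hair follicle keratinocytes. It stood at 18.4 and 1.97 CPM in immune cells (9.36 times lower) and at 274 and 69.8 CPM in non-immune cells (3.93 times lower), and in keratinocyte-marked cells at 359 and 103 CPM.

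The keratins Krt15, of basal and follicle stem cells, and Krt77 were the 2 of 15 compared genes that were lower in all 4 marked sets. Krt15 stood at 5309 and 975 CPM in non-immune cells (5.44 times lower) and at 40.3 and 5.28 CPM in immune cells (7.62 times lower). Krt77 stood at 1195 and 303 CPM (3.95 times lower) and at 101 and 6.08 CPM (16.6 times lower). The immune level in RP_UV was 0.54% of the non-immune one for Krt15 and 2.01% for Krt77, next to 1.65% for the keratinocyte panel. Col1a1, of the main collagen of dermis, stood at 4268 and 690.0 CPM in non-immune cells (6.19 times lower) and at 146 and 49.8 CPM in immune cells (2.94 times lower). It was lower in fibroblast-marked cells, at 31321 and 6004 CPM (5.22 times lower), a set chosen partly by Col1a1 itself. In keratinocyte-marked cells it was higher, at 2.64 and 23.3 CPM (8.84-fold, 5.10 to 16.6). The fibroblast panel, which also holds Col1a1, went from 14454 to 3675 CPM in non-immune cells. Under a stricter immune rule (3 UMIs of Ptprc and Tyrobp, 0 of Krt14 and Krt5) the immune fold of Col1a1 was 0.777, which was level.

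Across the 29 genes, the lower compartment level in RP_UV was 0.542% to 76.4% of the higher one, with a median of 2.99%, and it was under 10% in 19 of them. Within marked cells, 20 of 24 compared were lower in macrophage-marked cells, 16 of 25 in keratinocyte-marked (3 collagen genes were higher), 13 of 20 in fibroblast-marked and 10 of 18 in endothelial-marked cells. Without neutrophil-marked cells all 29 were lower in the immune compartment. They, too, were chosen by their folds in compartments that hold these cells, so the counts are no separate support.

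**Figure D4:**
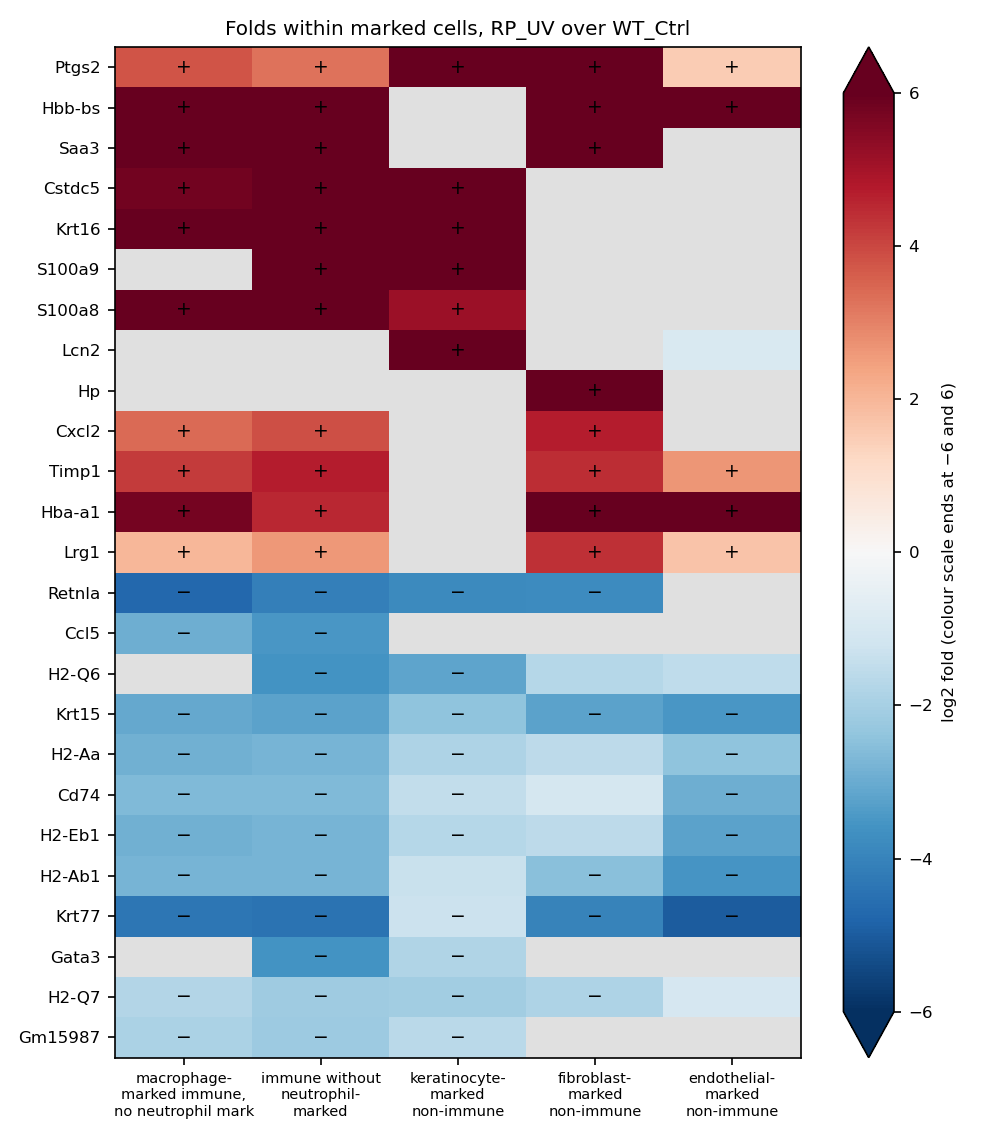
Log2 fold of RP_UV over WT_Ctrl (colour, ends at −6 and 6) of Ptgs2 and the named genes higher and lower in both, within 5 sets of marked cells; plus and minus signs mark calls, grey fields genes under the level filter. Ptgs2 carries a plus in all sets, and Krt15 and Krt77 a minus in all sets.

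Among the 94 genes higher in immune and level in non-immune cells, Thbs1 had the largest immune fold. Thbs1, the matrix protein thrombospondin 1, stood at 1.62 and 181 CPM in immune cells (111-fold, 74.5 to 174) and at 35.6 and 55.2 CPM in non-immune cells, where fibroblast-marked cells were higher (62.4 to 273 CPM). Its immune fold was 71.7 times (46.9 to 109.6) the non-immune one. Ifitm1, an antiviral membrane protein, stood at 7.99 and 447 CPM in immune cells (56.0-fold, 46.7 to 67.8) and at 46 and 70.6 CPM in non-immune cells. Without neutrophil-marked cells its immune levels were 4.02 and 60.1 CPM. Il1rn, the antagonist of the interleukin 1 receptor, stood 12.5-fold higher, and 5.57-fold higher (4.23 to 7.45) without neutrophil-marked cells. Vcan, the matrix proteoglycan versican, was 17.2-fold higher, and 15.8-fold without those cells. Gja1, the gap junction protein connexin 43, stood at 7.04 and 78.5 CPM in immune cells (11.2-fold) and at 119.7 and 122 CPM in non-immune cells, so that 2 levels that were far apart in WT_Ctrl came closer in RP_UV.

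Among the 86 lower in immune and level in non-immune cells were Igfbp2, an insulin-like growth factor binding protein, Trbc2, a constant region of the T-cell receptor, and Ramp1, a subunit of the receptor for the neuropeptide CGRP. Trbc2 stood at 81 and 8.72 CPM in immune cells (9.29 times lower) and at 57.6 and 42.8 CPM in non-immune cells. Ramp1 stood at 137 and 22.4 CPM in immune cells (6.12 times lower) and at 24.6 CPM in non-immune cells of either library. Igfbp2 stood at 20.4 and 0.43 CPM in immune cells (47.4 times lower) and at 97.3 and 67.1 CPM in non-immune cells. The level value of Igfbp2 joined 2 opposite differences: keratinocyte-marked cells went from 11.9 to 95.9 CPM (8.07-fold, 6.22 to 10.6) and fibroblast-marked cells from 639 to 73.4 CPM (8.71 times lower).

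Among the 72 genes higher in non-immune and level in immune cells were Ctla2a, an inhibitor of cathepsin-like proteases, Rrm2, the subunit of ribonucleotide reductase made in dividing cells, and Il18, an interleukin stored in keratinocytes. Ctla2a stood at 74 and 494 CPM in non-immune cells (6.69-fold, 6.18 to 7.24) and at 190.0 and 119 CPM in immune cells. It was higher in fibroblast-marked (186 to 1819.7 CPM) and endothelial-marked cells (706 to 1952 CPM), and also in macrophage-marked cells (38.7 to 99.7 CPM). Rrm2 stood at 7.02 and 43 CPM in non-immune cells (6.13-fold, 4.73 to 8.05), at 9.8 and 69.5 CPM in keratinocyte-marked cells, and at 12.8 and 9.58 CPM in immune cells. Il18 stood at 4.4 and 18.4 CPM in non-immune cells (4.18-fold) and at 0.943 and 24.7 CPM in keratinocyte-marked cells, with 56.4 and 94.9 CPM in immune cells. Without keratinocyte-marked cells the non-immune folds of Rrm2 and Il18 were 0.787 and 1.02.

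Among the 34 lower in non-immune and level in immune cells were Pkib, an inhibitor of protein kinase A, and Atf3, a stress-responsive transcription factor. Pkib stood at 110.2 and 20.4 CPM in non-immune cells (5.40 times lower) and at 44.2 and 30.4 CPM in immune cells. Atf3 stood at 600.2 and 145 CPM in non-immune cells (4.13 times lower) and at 619 and 454 CPM in immune cells. Keratinocyte-marked cells went from 847 to 95.9 CPM of Atf3, and fibroblast-marked cells the other way, from 43.2 to 167 CPM (3.87-fold, 2.85 to 5.32). Without keratinocyte-marked cells Atf3 was level, with a fold of 0.756.

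For 7 genes the calls were opposite. Il1r2, the decoy receptor for interleukin 1, stood at 40.4 and 285 CPM in immune cells (7.05-fold, 6.48 to 7.69) and at 87.7 and 22.7 CPM in non-immune cells (3.86 times lower). Its immune fold was 27.2 times (23 to 32.3) the non-immune one, and keratinocyte-marked cells went from 106 to 9.67 CPM. Il1r2 is one of the 4 genes of the neutrophil mark, and without neutrophil-marked cells its immune fold was 0.661, which was level. Adora2b, a receptor for adenosine, stood at 9.61 and 23.5 CPM in immune cells (2.45-fold) and at 31.4 and 10.9 CPM in non-immune cells (2.89 times lower). The immune call of Adora2b was lost under several alternatives, among them scaling by the median ratio (fold of 2.33) and equal weight for each cell (2.41). Its non-immune fold was undecided in keratinocyte-marked cells alone, at 0.466.

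The other 5 genes were lower in immune and higher in non-immune cells. Aqp3, a channel for water and glycerol in epidermis, stood at 20 and 5.9 CPM in immune cells (3.38 times lower) and at 62.2 and 442 CPM in non-immune cells (7.10-fold, 6.52 to 7.75), with 98.6 and 685 CPM in keratinocyte-marked cells. The immune level of Aqp3 in RP_UV was 1.33% of the non-immune one, next to 1.65% for the keratinocyte panel. Apod, a lipid carrier, stood at 263 and 43.3 CPM (6.07 times lower) and at 221 and 510.2 CPM (2.31-fold, 2.20 to 2.43), with 1159 and 3050.5 CPM in fibroblast-marked cells. In macrophage-marked cells Apod was level, at 29.9 and 39.7 CPM. Tmem176a stood at 542 and 144 CPM in immune and 47.6 and 116 CPM in non-immune cells. Lpl, lipoprotein lipase, stood at 312 and 85.5 CPM and at 51.1 and 122 CPM, and Cd300lg, a receptor of capillary endothelium, at 38.5 and 13.8 CPM and at 20.7 and 56.5 CPM. With equal weight for each cell, non-immune folds were 1.46 for Lpl, which was level, and 2.05 for Tmem176a and 2.33 for Cd300lg, both undecided. The immune fold of Aqp3 was then 0.541, also undecided. With cells thinned to 1000 UMIs before the compartments were formed, the non-immune folds of Tmem176a and Lpl were 0.946 and 0.964, both level. Thinning also changed which cells were non-immune, 2315 in WT_Ctrl in place of 1861, so it does not check depth alone.

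Gene lists described the contrast by function. Counts below are members called higher or lower among those compared, beside 3.57% higher and 3.79% lower over all immune genes and 3.52% and 2.63% over all non-immune genes, and the median fold of all compared genes was 1.05 in immune and 1.02 in non-immune cells. Of 14 alarmin and acute-phase genes, 8 were higher and 0 lower in each compartment, with a median fold of 9.76 in immune and 2.25 in non-immune cells. The neutrophil panel, which shares S100a8 and S100a9 with this list, rose beside it from 199 to 3987 CPM in immune cells, and neutrophil-marked cells went from 5.33% to 26.3%. Slpi, an antiprotease, stood at 8.46 and 165 CPM in immune cells. Chil3, a chitinase-like protein of macrophages and neutrophils, stood at 6.5 and 251 CPM there and at 0 and 2.31 CPM in non-immune cells, under the level filter. Of MHC class II genes, 10 of 10 were lower in immune and 4 of 5 in non-immune cells, with medians of 0.216 and 0.226. Psmb9, a proteasome subunit of the class I list, went from 152 to 52.5 CPM in non-immune cells.

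Of 17 chemokines in immune cells 9 were higher and 3 lower (median 2.12), against 2 and 3 of 15 in non-immune cells (median 1.25). The monocyte chemokine Ccl2 stood at 59.5 and 553 CPM in immune cells (9.29-fold, 8.67 to 9.97) and at 16.8 and 30.7 CPM in non-immune cells. Ccl27a, which draws T cells to the skin, stood at 837 and 68.8 CPM in non-immune cells (12.2 times lower). Of 9 cytokines in immune cells 5 were higher (median 4.45), against 2 of 7 in non-immune cells (median 0.901). Osm, oncostatin M, stood at 3.99 and 53 CPM in immune cells, and Il6 at 2.1 and 21 CPM in non-immune cells (10.0-fold, 6.33 to 16.8). Il1b stood at 599 and 2662 CPM in immune cells (4.45-fold), but without neutrophil-marked cells at 449 and 402 CPM, which was level. With Il1r2 left out of the neutrophil mark, its fold without those cells was 2.05, which was undecided.

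Of 12 prostaglandin genes in immune cells Ptgs2 was higher and 4 were lower. The lower ones were Ptgs1, the constitutive cyclooxygenase (40.7 and 16.9 CPM), Hpgd, which breaks prostaglandins down (242 and 68.6 CPM), and the receptor genes Ptger3 (15 and 5.1 CPM) and Ptgir (19.4 and 7.5 CPM). With equal weight for each cell, Ptgs1 (fold of 0.573) and Ptger3 (0.414) were undecided. So were Ptgs1 (0.531) and Ptgir (0.402) under the stricter immune rule. In non-immune cells Ptgs2 was the only one of 14 called. Another 4 were undecided, with folds of 0.452 for Hpgd (0.384 to 0.530), 0.400 for Ptger4, 0.430 for Ptgfr and 0.437 for Hpgds. cAMP-responsive genes, a class that prostaglandin E2 can induce, held 0 higher and 3 lower of 14 in immune cells (median 0.969) and 1 higher and 2 lower of 14 in non-immune cells (median 0.978). Of 22 immediate early genes 2 were higher in immune cells (median 1.12) and 1 was higher and 2 lower in non-immune cells (median 0.706). Egr1 stood at 129 and 519 CPM in immune cells (4.03-fold) and at 774 and 454 CPM in non-immune cells.

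Of 13 metallothionein and NRF2 genes 8 were higher in immune cells (median 2.07), among them Slc7a11, the cystine importer, at 5.01 and 113 CPM, against 2 higher and 1 lower of 14 in non-immune cells (median 1.42). Of the 8 in immune cells, Ftl1 (2.05-fold) and Prdx1 (2.07-fold) lay near the limit. Both were level with equal weight for each cell, at 1.95 and 1.72. Of 12 wound keratinocyte genes in non-immune cells 7 were higher (median 3.34), with Krt6a at 3.14 and 841 CPM (268-fold) and Krt6b at 0 and 371 CPM, at least 1181-fold higher than the level that 3 counts would give, against 3 of 6 in immune cells (median 2.23). Of 19 cell cycle genes 6 were higher in non-immune cells (median 2.02), among them Mcm5, Tyms and Birc5, and 0 of 17 were called in immune cells (median 0.824). Of 20 matrix genes in non-immune cells 5 were lower and 2 higher (median 0.600), against 4 lower and 1 higher of 7 in immune cells (median 0.438). The fibroblast panel, which shares collagen genes with this list, went from 458 to 219 CPM in immune cells. The 2 higher in non-immune cells were Postn and Tnc, the matrix proteins periostin and tenascin C, with Tnc at 7.44 and 61.4 CPM (8.26-fold, 6.45 to 10.7). Of 11 keratinocyte differentiation genes in immune cells 7 were lower and Fabp5 higher (median 0.347), against 2 lower and 3 higher of 17 in non-immune cells (median 0.965), where Flg, filaggrin, stood at 8.8 and 61.2 CPM. The keratinocyte panel moved with the immune genes, from 464 to 162 CPM. Krt10, Krtdap and Ly6d were no longer called lower in immune cells when each cell had equal weight (folds of 0.472, 0.600 and 0.892) or without the deepest 5% of cells (0.498, 0.542 and 0.859).

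Matrix proteases and their inhibitors were higher in 4 of 7 in immune cells (median 2.56) and in 2 of 7 in non-immune cells (median 0.868). Clock genes were higher in 3 of 9 in immune cells (median 2.05), with Dbp at 11.4 and 89.1 CPM, and lower in 2 of 12 in non-immune cells (median 0.861), with Hlf at 84.7 and 20.7 CPM and Arntl at 18.4 and 4.72 CPM. Alternative activation genes held 2 higher and 3 lower of 13 in immune cells and 2 lower of 10 in non-immune cells. Complement genes held 4 higher of 13 and 1 higher of 14. Interferon-stimulated genes held 2 higher and 1 lower of 18 in immune and 0 of 9 called in non-immune cells, p53 targets 1 each way of 14 and 0 of 15, and NF-kB feedback genes 1 higher of 14 and 1 of 13. Ribosomal protein genes, 80 and 81, had no call, with medians of 0.746 and 0.896, and unfolded protein response genes had none in either compartment. The remaining 5 lists, heat shock, glucocorticoid-responsive, glycolysis, oxidative phosphorylation and cholesterol synthesis genes, had at most 2 calls a direction in either compartment.

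**Figure D5:**
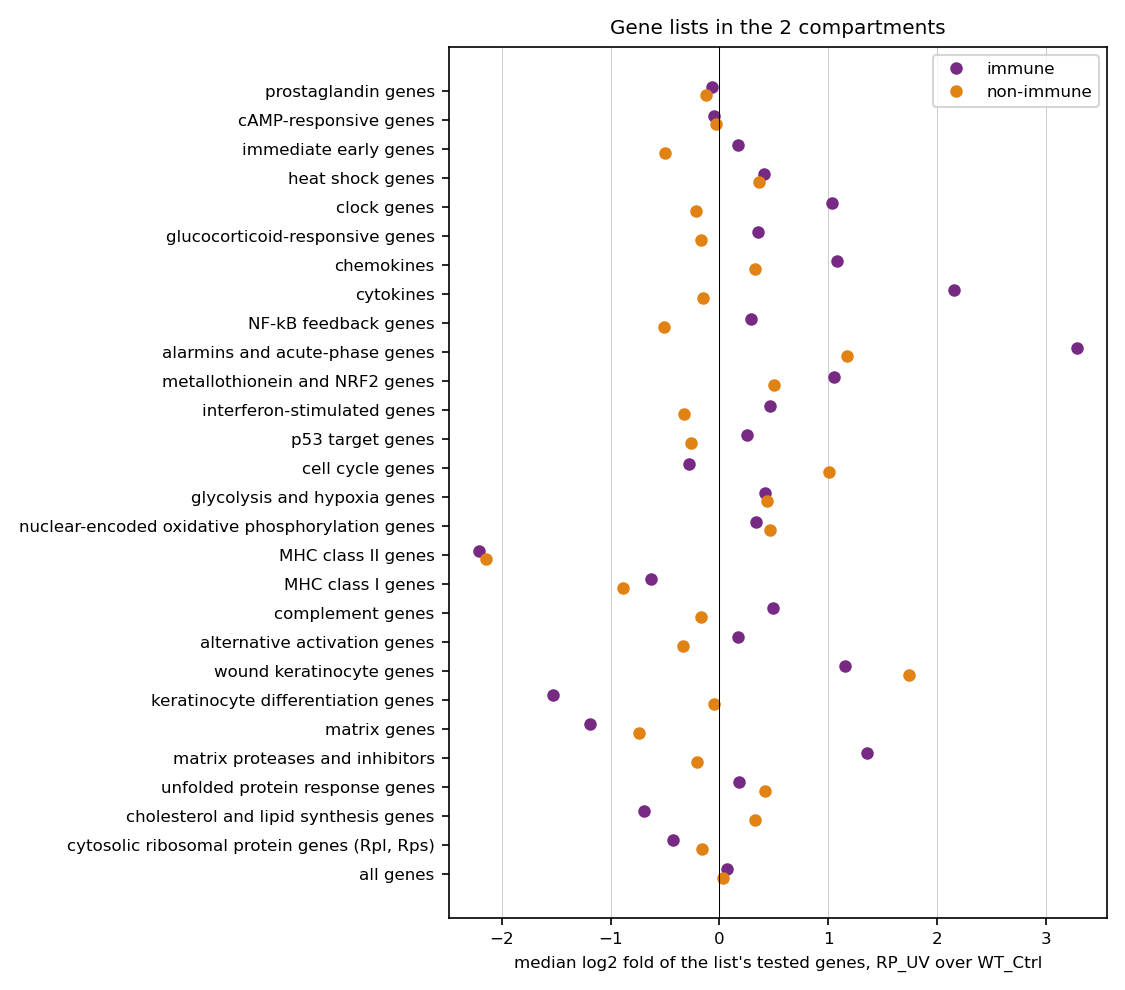
Median log2 fold of RP_UV over WT_Ctrl of the compared members of each gene list in immune (purple) and non-immune cells (orange); the line marks no difference. Alarmins and acute-phase genes lie on the right and MHC class II genes on the left in both compartments, while cell cycle genes lie left of the line in immune and right of it in non-immune cells.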

How the data were processed

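The deposited matrices hold UMI counts, which the authors obtained from 10x 3′ libraries with Cell Ranger 6.1.1 on mm10, per the file headers and the labels, for called cells only and without normalization. Cells were kept with a mitochondrial share under 10% and more than 200 and fewer than 4000 genes, as in the study's methods (6000 in WT_UV), which left 5309 of 5977 barcodes in WT_Ctrl and 6070 of 7240 in RP_UV. Raw UMIs were summed over the cells of each compartment and divided by their total.

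Folds of RP_UV over WT_Ctrl carry exact conditional (Clopper-Pearson) 95% intervals, levels exact Poisson and shares Wilson intervals. The ratio of 2 folds has an interval from the 4 counts on the log scale. All cover counting error only, and UMIs of 1 library are not replicates. No p-value was computed, since each group had 1 library. Where WT_Ctrl had no UMI, the fold is a lower bound against 3 counts in the compartment or marked set. List medians take such genes at their bound. The script was tested on simulated counts.

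The genes named were, besides Ptgs2: the 12 higher and 12 lower in both with the largest smaller fold, the 6 with the largest fold in each class called in 1 compartment, the opposite calls, and of each of the 26 lists the 4 called members with most UMIs. Of the last 3 sets the text gives a part. Acta2, Cxcl1, Pf4, B2m, H2-K1, H2-D1, Spp1, Akr1b8, Srm, Tagln2, Tspan4, Odc1, Ccl27a, Slpi, Chil3, Osm, Il6, Tnc, Postn, Flg, Arntl, Mcm5 and Slc7a11 were named after their values were seen. Results on 1 of the 47 genes higher in both are left out. The members, lists and rules were chosen with earlier results of these data known.

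Marked cells had at least 3 UMIs of Csf1r, C1qa, C1qb and C1qc (macrophage), 2 of Csf3r, Retnlg, Cxcr2 and Il1r2 (neutrophil), 5 of Krt14 and Krt5 (keratinocyte), 5 of Col1a1, Col1a2 and Dcn (fibroblast), 2 of Pecam1, Cdh5 and Egfl7 (endothelial) or 2 of 6 T-cell receptor and CD3 genes. Panels and lists were summed from genes as the files name them. Gene positions and promoter windows came from RefSeq GRCm38.p6. Alternatives covered scaling (median ratio, edgeR 4.0.16 TMM), level and fold limits, cell filters, cell weights, depth and compartment rules. Python 3.11.15, numpy 2.4.6, scipy 1.17.1, pandas 2.3.3 and R 4.3.3 were used.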

Additional observations from a re-analysis of the deposited data

Results flagged for a closer look

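The calls of 7 genes were opposite in the 2 compartments, and the difference was not tested, since each group was 1 library. The immune fold over the non-immune fold was 27.22 for Il1r2 and 7.089 for Adora2b, which were higher in immune and lower in non-immune cells. It was 0.04159 for Aqp3, 0.07132 for Apod, 0.1087 for Tmem176a, 0.1153 for Lpl and 0.1318 for Cd300lg, which were lower in immune and higher in non-immune cells.

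Ptgs2 also stood above its WT_Ctrl level in the RP_UV cells that no comparison used, at 416.1 CPM in cells with 1 UMI of Ptprc and Tyrobp and at 558 CPM in cells with both immune and keratin UMIs.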

How the results depend on the processing

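Each group was 1 library, so counting error is the only error known, and depth limits genes under 10 CPM. No paired analysis was possible because each group had 1 library. Of 3014 folds of named genes under 18 alternatives, 2994 kept their direction, and of 2678 at a limit of 2-fold 2466 stayed past it, while 83 of 168 called folds stayed past it under all of these. The 2 alternatives that leave out cells by Csf3r, Retnlg and Cxcr2, or by macrophage and T-cell marks, were added after the data had been seen.

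Counts follow in the order higher in immune, higher in non-immune, higher in both, higher in immune only, higher in non-immune only, lower in the same 5, and opposite. A fold limit of 3 gave 137, 106, 22, 40, 15, 144, 70, 11, 46, 3 and 1. A limit of 1.5 gave 691, 756, 151, 193, 158, 570, 554, 77, 111, 108 and 33. No level filter gave 525, 536, 138, 129, 112, 756, 416, 128, 168, 61 and 16, and a filter of 50 CPM 127, 135, 9, 42, 24, 82, 88, 11, 13, 15 and 4. All deposited barcodes gave 123 higher in non-immune only, 51 lower in both, 72 lower in non-immune only and 11 opposite, and an upper limit of 6000 genes 119, 49, 63 and 11. Cells thinned to 1000 UMIs, which left 1818 immune and 2315 non-immune cells in WT_Ctrl, gave 181 higher in non-immune, 6 higher in non-immune only, 8 lower in non-immune only, 196 lower in immune, 35 lower in immune only and 54 lower in both. They shared 21 of the 47 genes higher in both and 15 of the 29 lower. Equal weight for each cell gave 22 lower in non-immune only and shared 36 and 20. The stricter immune rule gave 19 lower in both and 11 opposite. Keratinocyte-marked cells alone as non-immune gave 30 higher in both, 348 lower in non-immune, 56 lower in immune only, 126 lower in non-immune only and 22 opposite, and their removal 52 lower in both and 11 opposite. Both scalings kept at least 42 of the 47 and all 29.

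The log2 fold of Ptgs2 in immune cells, 4.66, was 3.25 without neutrophil-marked cells, 3.85 without them when Il1r2 was left out of the mark, 5.10 without the deepest 5% of cells, 5.96 with equal weight for each cell and 6.13 with thinned cells. In non-immune cells, 6.48, it was 6.99 over all barcodes and 5.63 with equal weight.

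These folds turned direction (log2 values). With thinned cells they were −0.00042 for Il18, −0.081 for Tmem176a and −0.053 for Lpl in non-immune cells, and 0.41 for Hspb1, 0.87 for Perp, 0.17 for Krt10, 0.34 for Krtdap and 0.60 for Ly6d in immune cells. Without neutrophil-marked cells they were −0.60 for Il1r2 and −0.16 for Il1b. In keratinocyte-marked cells alone they were −0.18 for Hbb-bs and for Hp and −0.47 for Hba-a1, genes that were under the level filter there. For Sparc, Col1a2, Col1a1 and Col3a1 they were 0.49, 2.06, 3.14 and 3.03 in these cells. Without keratinocyte-marked cells they were −0.35 for Rrm2, 0.15 for Fosb and −0.74 for Krt17. The cause was not tested.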
